A study of Mus musculus with 28 samples.

Results

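The Hox genes of the Hoxa, Hoxb, Hoxc and Hoxd clusters were followed through the peak lists of a ChIP-seq study of mouse embryonic stem cells (mESCs), WT or with Spen knocked out (Spen KO). Members were the protein-coding genes of the mm9 annotation (GENCODE vM1) named Hoxa, Hoxb, Hoxc or Hoxd with a number, and no measured value was used to choose them. The rule gave 39 of 22238 protein-coding gene symbols. Of these, 11 were in Hoxa (chr6:52105366-52210874), 10 in Hoxb (chr11:96055630-96229570), 9 in Hoxc (chr15:102751534-102867274) and 9 in Hoxd (chr2:74506367-74603200). The cluster regions used below add 5 kb on each side and cover 532 kb of mm9 in all.

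The study asked what the loss of Spen, a repressor that binds Xist RNA, does to chromatin in mESCs. Of its 28 samples, 16 were ChIP libraries and 12 were inputs, and each genotype had 2 libraries for each of 4 antibodies. Both genotypes were haploid HATX cells that carry an Xist transgene inducible by doxycycline, grown in serum with LIF on gelatin. The Spen KO cells lack most or all of the Spen gene and came from a single line, clone 2, so Spen loss and other properties of that clone cannot be told apart. The study calls its replicates technical, so the spread between libraries leaves out variation between cultures. Each histone mark had 1 list per genotype, filtered for agreement between libraries in the case of H3K4me3 and H3K27Ac, and differences in these lists have no replicate test. Oct4 had 1 list per library. Lists hold only what passed the peak caller, and the depth behind them is unknown.

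Hox proteins are homeodomain transcription factors that give cells their position along the body axis. The genes lie in order along each cluster, and genes with the same number in different clusters are paralogues: low numbers act toward the head and high numbers toward the tail and the tips of the limbs. In mESCs the clusters are a textbook example of bivalent chromatin, in which Polycomb proteins hold CpG-rich promoters silent while H3K4me3, a mark of promoters, is also present. H3K27Ac marks active promoters and enhancers, and H3K9me3 marks heterochromatin and silenced repeats. Oct4, encoded by Pou5f1, is a core pluripotency factor.

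The cells carried the marks of mESCs. All 8 mESC marker genes (Pou5f1, Nanog, Sox2, Klf4, Esrrb, Zfp42, Dppa5a and Tdgf1) had H3K4me3 and H3K27Ac at a transcription start site (TSS) in both genotypes. The 9 markers of fibroblasts, endoderm and neural cells all had H3K4me3, and 0 of them had H3K27Ac in either list. The lists did not test the deletion: H3K4me3 covered 8.97 kb of the Spen gene in the WT list and 24.0 kb in the Spen KO list. The first WT Oct4 library stood apart from the others, with 80.2% of its peaks inside H3K4me3 against 38.6 to 46.2%.

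Every Hox gene had H3K4me3 in WT mESCs, and none had H3K27Ac or H3K9me3 at a TSS in either genotype. In the WT list, 39 of 39 Hox genes had an H3K4me3 peak within 1000 bp of an annotated TSS, against 65.8% of all protein-coding genes. In the Spen KO list the count was 33 of 39, against 64.4%. The 39 genes with H3K27Ac in neither list compare with 20% of all genes marked in WT and 21.1% in Spen KO. For H3K9me3, 0 of 39 compares with 10.9% in WT and 10.6% in Spen KO. Among 70 genes of other homeobox families (such as Pax, Dlx and Lhx), H3K4me3 was at 68 genes in the WT list and at 66 in the Spen KO list. H3K27Ac was at 1 and 2 of the 70. In these counts the Hox genes resembled the other homeobox genes and differed from the mESC markers, which had H3K27Ac in every case.

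**Figure D1:**
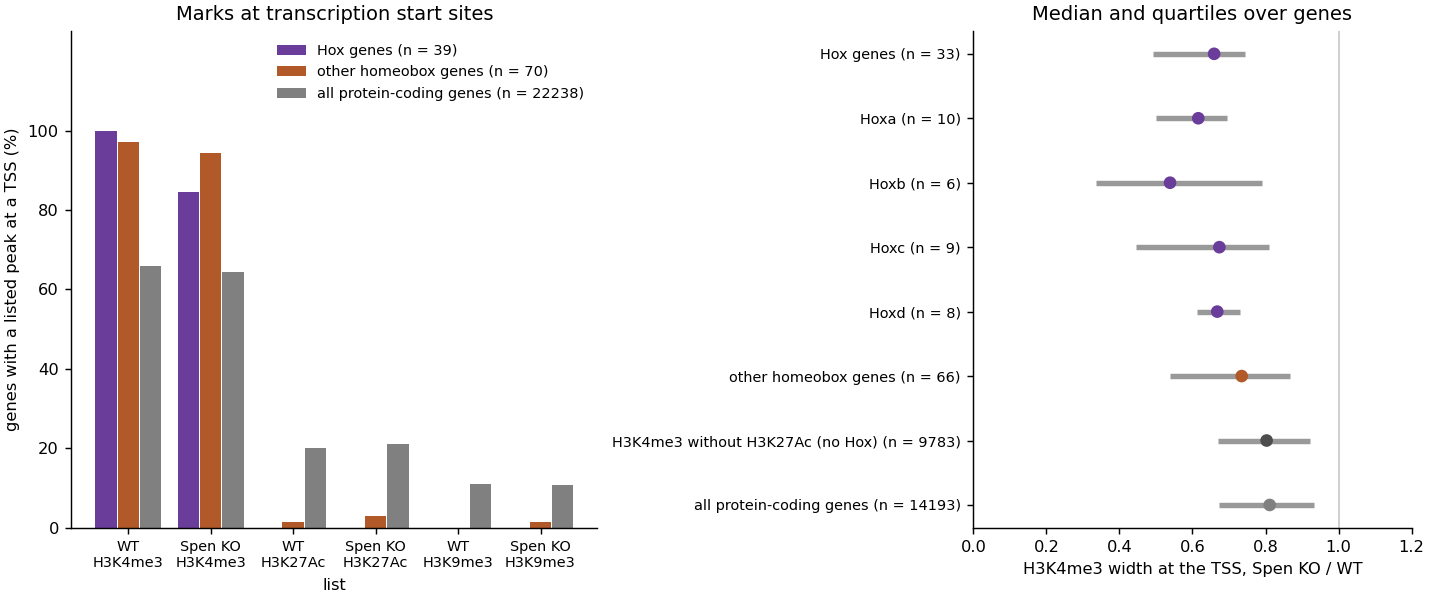
Left, the percentage of genes with a listed peak within 1000 bp of a TSS (y axis) in each histone list, for Hox genes, other homeobox genes and all protein-coding genes. Right, the width of the widest H3K4me3 peak at the TSSs in Spen KO divided by that in WT, as the median (point) and quartiles (bar) over genes with a peak in both lists. H3K4me3 covers 100% of Hox genes in WT and 84.6% in Spen KO, no Hox bar appears for the other marks, and the Hox width ratio has a median of 0.659 against 0.811 for all genes.

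The clusters were densely covered with H3K4me3 in WT and less so in Spen KO. The WT list placed 83 peaks in the 4 regions, or 156 per Mb against 13.1 per Mb genome-wide, and they covered 133 kb or 25.0% of the regions. The Spen KO list placed 61 peaks there, covering 72.0 kb or 13.5%. Covered bases in Spen KO were thus 0.541 of those in WT, while the ratio for the whole lists was 0.780. The ratio was 0.536 in Hoxa, 0.617 in Hoxb, 0.546 in Hoxc and 0.467 in Hoxd, below the whole-list ratio in all 4 clusters. Within 5 kb of TSSs the ratio was 0.532 for Hox genes, 0.616 for other homeobox genes and 0.783 for all genes. Genes other than Hox that had H3K4me3 without H3K27Ac in WT had a ratio of 0.750. With 1 list per genotype these ratios carry no error and no test.

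**Figure D2:**
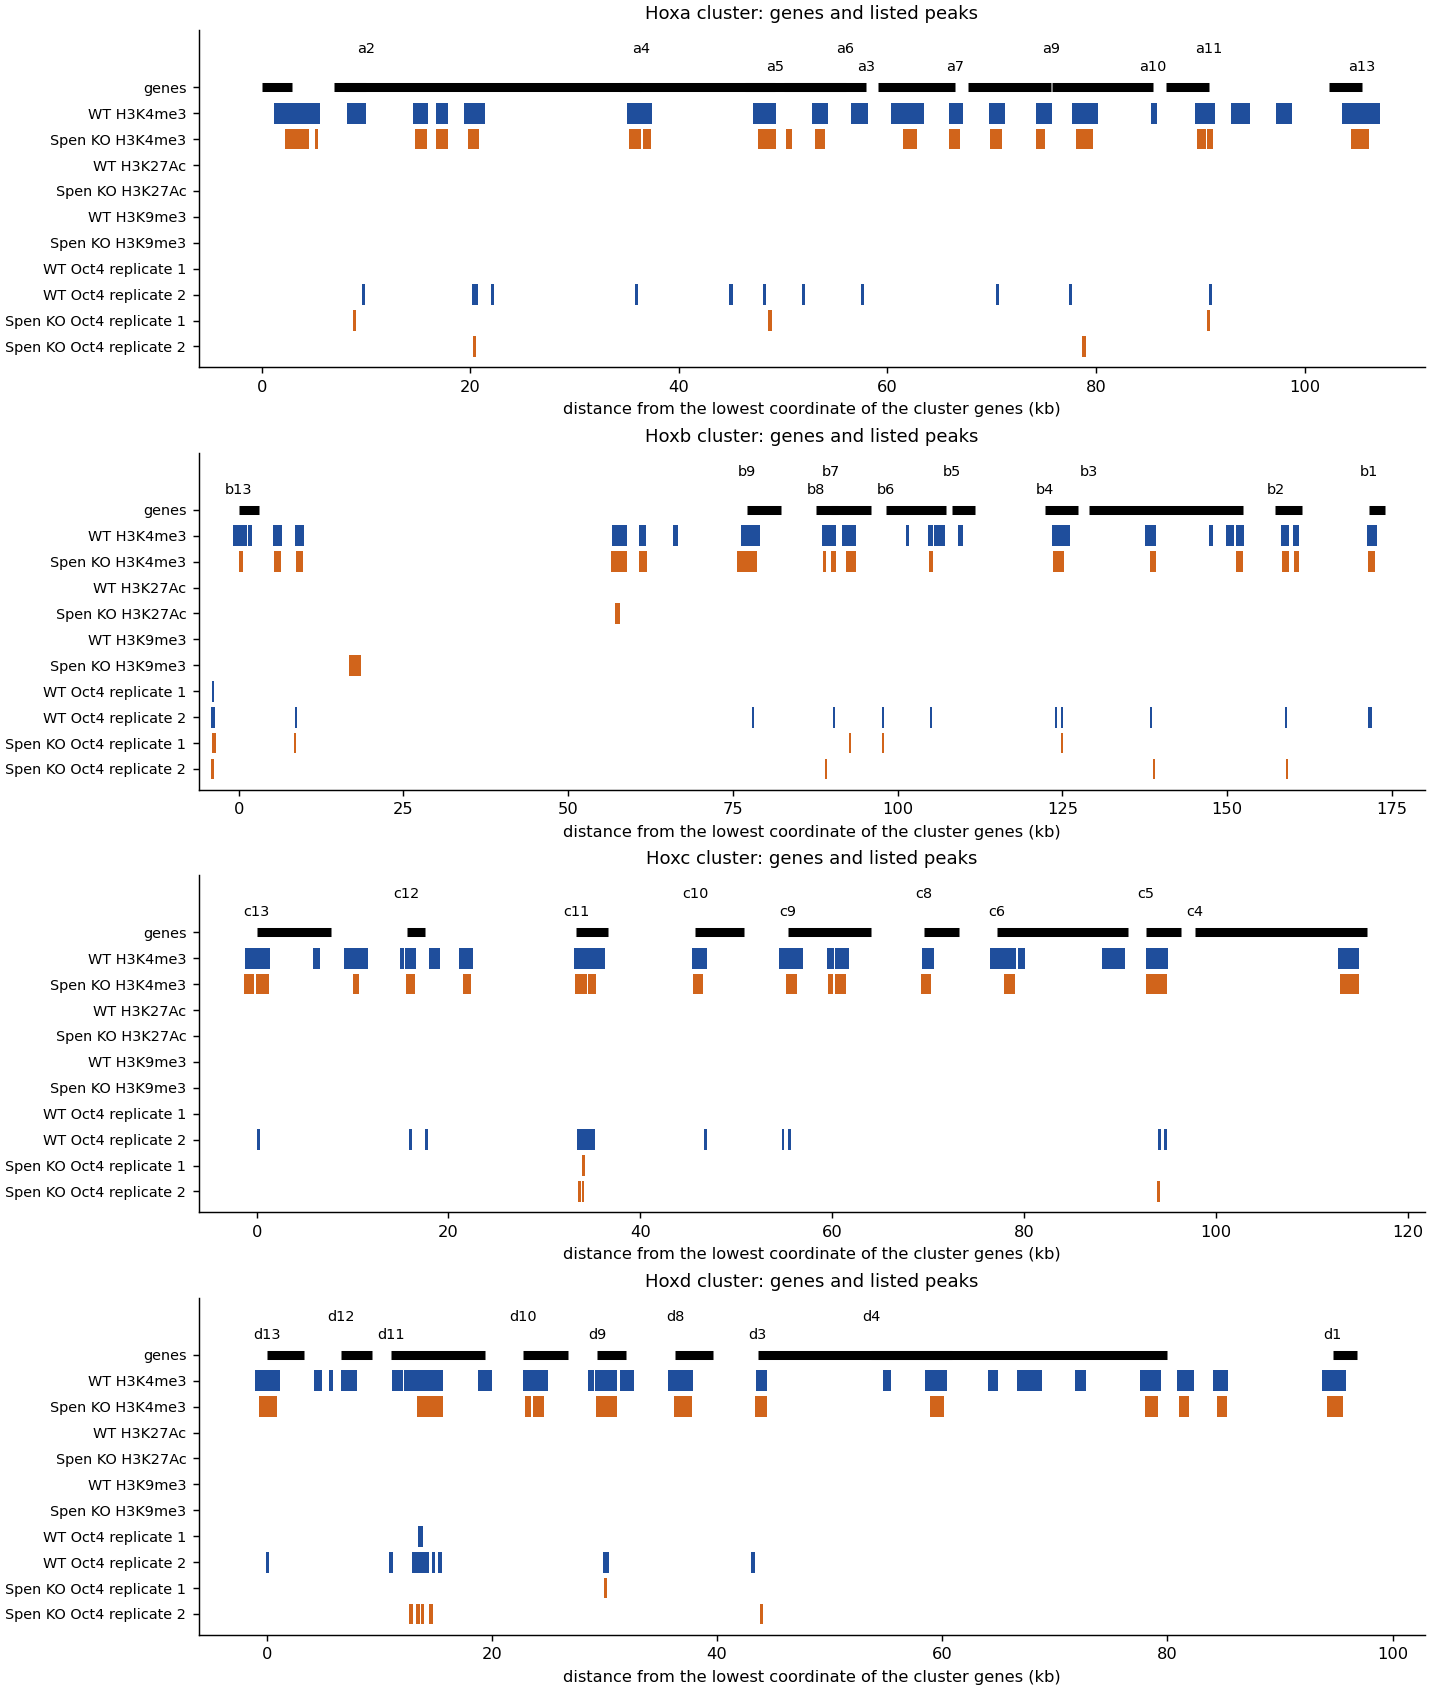
Maps of the 4 clusters, with the distance in kb from the lowest coordinate of the cluster's genes on the x axis. Black bars are gene records (overlapping records merge) with labels at the TSS of 38 genes, and each row below shows the peaks of 1 list, WT in blue and Spen KO in orange, with bars under 0.3 kb drawn at 0.3 kb. The rows of H3K4me3 are filled along all 4 clusters with 83 WT and 61 Spen KO peaks, those of H3K27Ac and H3K9me3 are empty except for 1 Spen KO peak each in Hoxb, and Oct4 is densest in WT replicate 2.

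Fewer WT peaks of the clusters were found again in Spen KO than over the whole list. Of 83 WT H3K4me3 peaks, 53 (63.9%) overlapped a Spen KO peak by at least 1 bp, against 76.8% of the whole WT list. In the other direction, 60 of 61 Spen KO peaks (98.4%) overlapped a WT peak, against 90.5% of the whole list. The Spen KO peaks over the clusters were therefore almost a subset of the WT peaks. The exception was a 510 bp peak at chr6:52155681-52156190, inside the gene records of Hoxa6 and Hoxa3. The 30 WT-only peaks were narrower, with a median of 926.5 bp against 1955 bp for shared peaks, and weaker, with a median score percentile of 26.7 against 55.7 within the list. Over the whole list, WT-only peaks were likewise narrower (704 against 1832 bp) and weaker (16.4 against 61.5). The share found again was lowest in Hoxd, at 11 of 22, and highest in Hoxc, at 13 of 18. Of the 53 shared WT peaks, 7 were each overlapped by 2 Spen KO peaks, a count not made for the whole list.

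At 6 Hox genes H3K4me3 was listed at a TSS in WT and not in Spen KO, and the reverse held for 0 genes. The 6 were Hoxa2, Hoxb2, Hoxb3, Hoxb4, Hoxb5 and Hoxd12, or 15.4% of the Hox genes marked in WT. Over all protein-coding genes 2.02% made this change, which is 3.07% of those marked in WT, and 0.571% made the opposite change. Among other homeobox genes 2 of 68 made it, and among the other genes with H3K4me3 and no H3K27Ac in WT 4.08%.

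Hoxa2, which patterns the hindbrain and the second branchial arch, had 2 WT peaks at its TSS, the wider at chr6:52113543-52114770 (1228 bp, percentile 42.5). Its nearest Spen KO peak was 4659 bp away. Hoxd12, a gene of the distal limb, also had 2 WT peaks (1363 bp for the wider, percentile 40.7), and its nearest Spen KO peak was 5693 bp away. At these 2 genes the Spen KO list left a gap of several kb on the map.

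The other 4 were neighbours in Hoxb, genes that act from the hindbrain to the thorax. At Hoxb5 a WT peak of 830 bp (percentile 30.2) lay 854 bp from the TSS and the nearest Spen KO peak 2969 bp away. Hoxb3 had 2 WT peaks (1212 bp, percentile 32.8), the nearer 371 bp from a TSS, and the nearest Spen KO peak was 1863 bp away. The calls at Hoxb2 and Hoxb4 rested on the window. At Hoxb4, which is known for its action in blood progenitors, the WT peak of 2803 bp began 999 bp from the TSS and the Spen KO peak 1209 bp from it. At Hoxb2 these distances were 856 and 1032 bp.

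How the TSS was matched moved this result. With a window of 5000 bp, 39 Hox genes had H3K4me3 in WT and 38 in Spen KO, so that Hoxd12 alone was WT-only, or 2.56% of the marked Hox genes against 2.96% of all marked genes. When a Spen KO peak had only to overlap a WT peak of the TSS, 35 Hox genes had it, a count not made for all genes. With the TSS itself the counts were 31 and 27, and 12.9% of the marked Hox genes were WT-only against 4.34% of all marked genes. With the 5 prime end of the gene record as the only TSS they were 35 and 25, with 28.6% WT-only against 3.38%. Among the stronger 50% of each list the counts were 28 and 16, so 12 Hox genes (42.9%) were then WT-only against 8.94% of all genes.

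Promoter sequences of 3 of these genes are shown. The 6 genes had a lower median CpG density than the Hox genes with H3K4me3 in both lists, but the ranges overlapped. Each is the 200 bp of mm9 directly before the TSS at the 5 prime end of the gene record, on the strand of the gene, with CpG dinucleotides in capitals. Hoxa2 (chr6:52115413-52115612, minus strand) lies within the span of a long Hoxa3 record and has 2 CpGs, Hoxb5 (chr11:96163709-96163908, plus strand) has 8 and Hoxd12 (chr2:74512786-74512985, plus strand) has 6.
Hoxa2: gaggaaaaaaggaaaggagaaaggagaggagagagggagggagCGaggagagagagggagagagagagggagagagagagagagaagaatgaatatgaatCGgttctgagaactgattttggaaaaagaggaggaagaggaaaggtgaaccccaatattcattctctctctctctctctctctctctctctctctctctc
Hoxb5: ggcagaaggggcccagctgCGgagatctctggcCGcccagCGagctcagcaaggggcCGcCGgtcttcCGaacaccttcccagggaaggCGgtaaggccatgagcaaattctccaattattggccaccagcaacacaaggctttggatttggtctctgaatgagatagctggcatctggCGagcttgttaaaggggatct
Hoxd12: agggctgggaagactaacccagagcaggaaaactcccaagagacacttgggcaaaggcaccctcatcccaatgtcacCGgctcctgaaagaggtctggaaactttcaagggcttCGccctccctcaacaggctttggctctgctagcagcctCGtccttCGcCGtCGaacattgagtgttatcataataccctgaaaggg

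For comparison, 3 promoters of genes with H3K4me3 in both lists are shown, chosen from the CpG-rich end of the Hox genes after their values were seen. Hoxa5, which acts in the neck and the lung, has 22 CpGs (chr6:52154587-52154786, minus strand). Hoxd13 has 28 (chr2:74506167-74506366, plus strand) and Hoxa13 33 (chr6:52210875-52211074, minus strand), and both act in the digits and the genital tubercle.
Hoxa5: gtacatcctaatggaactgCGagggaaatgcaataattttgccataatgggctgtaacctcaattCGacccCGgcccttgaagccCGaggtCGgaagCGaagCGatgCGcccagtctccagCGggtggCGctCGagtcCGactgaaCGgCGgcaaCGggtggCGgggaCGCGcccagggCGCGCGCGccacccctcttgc
Hoxd13: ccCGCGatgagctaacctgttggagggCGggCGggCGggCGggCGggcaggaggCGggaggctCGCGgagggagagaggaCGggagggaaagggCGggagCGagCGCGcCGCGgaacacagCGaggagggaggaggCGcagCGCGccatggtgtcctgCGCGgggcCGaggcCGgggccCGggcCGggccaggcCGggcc
Hoxa13: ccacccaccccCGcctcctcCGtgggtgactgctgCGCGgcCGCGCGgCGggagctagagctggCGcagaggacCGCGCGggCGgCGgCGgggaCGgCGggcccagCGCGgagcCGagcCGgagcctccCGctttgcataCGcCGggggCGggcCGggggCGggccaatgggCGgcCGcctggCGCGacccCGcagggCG

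The 6 Hox genes without a Spen KO peak lay in the lower range of CpG density. In a window of 500 bp on each side of the TSS they had a median of 2.80 CpGs per 100 bp (range 1.50 to 4.10) and a median observed over expected CpG ratio of 0.411. The 33 genes with a Spen KO peak had medians of 5.49 CpGs per 100 bp (range 1.30 to 12.8) and 0.671. The ranges overlapped, and Hoxd4, at 1.30 CpGs per 100 bp, had a peak in both lists. All protein-coding genes had medians of 4.10 and 0.550, and the genes with H3K4me3 and no H3K27Ac 5.69 and 0.677. The peaks showed the same order, with medians of 3.96 CpGs per 100 bp in the 30 WT-only cluster peaks and 5.22 in the 53 shared ones, against 2.10 and 3.43 over the whole WT list. The part of CpG density in the calls was not tested.

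**Figure D3:**
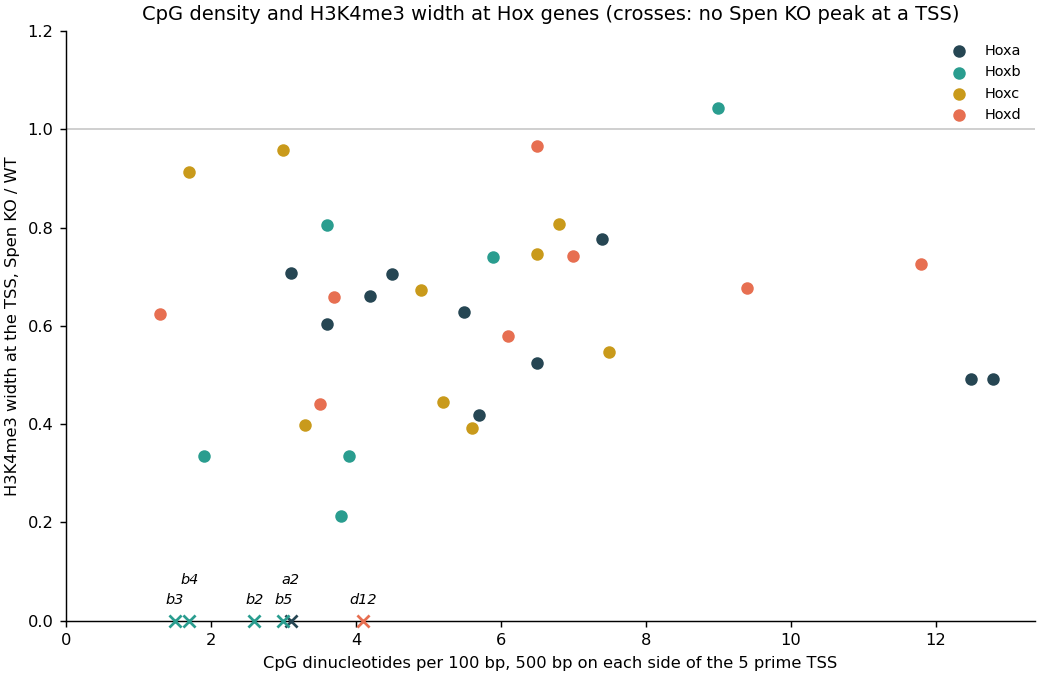
Each point is a Hox gene, coloured by cluster, with CpG dinucleotides per 100 bp around the TSS on the x axis and the width of its widest H3K4me3 peak in Spen KO divided by that in WT on the y axis. Crosses at 0 are the 6 genes with no Spen KO peak within 1000 bp of a TSS, which sit between 1.50 and 4.10 CpGs per 100 bp, while the other 33 genes run from 1.30 to 12.8.

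The widest peak within 1000 bp of any TSS of a gene was taken from each list. Where both lists had one, that of Spen KO was the narrower at 32 of 33 Hox genes. At 6 of the 33 (Hoxa3, Hoxa6, Hoxa9, Hoxb6, Hoxb7 and Hoxd3) the widest peaks of the lists lay at different positions and did not overlap. Among the other 27, the peak was narrower in Spen KO at 26, with a median ratio of 0.659, and by the summed width of all peaks at a gene's TSSs 32 of 33 were narrower, with a median of 0.644 against 0.810 for all genes. Single peaks could differ from this, and at Hoxd3 the peak at one of its TSSs was 1013 bp wide in the WT list, against 1028 bp in that of Spen KO. By the widest peaks of all genes, 88.3% were narrower in Spen KO, and 63 of 66 other homeobox genes. The median width was 2173 bp in the WT list and 1248 bp in that of Spen KO. The median of the ratio per gene was 0.659 (quartiles 0.491 and 0.743), against 0.735 for other homeobox genes and 0.811 for all genes. By cluster the median ratio was 0.616 in Hoxa, 0.539 in Hoxb, 0.674 in Hoxc and 0.668 in Hoxd. Neighbouring genes can share a peak, and the 39 genes had 37 distinct widest peaks in WT.

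Among the wide cluster peaks were those at 3 genes of the limb and tail, while other wide peaks lay at other Hox genes. The Hoxa13 peak measured 3572 bp in WT, where the Spen KO peak measured 1755 bp. The widths were 3395 and 2238 bp at Hoxd11, and 3197 and 1255 bp at Hoxc11, where a further Spen KO peak of 881 bp lay within the WT peak. At each of these 3 genes the widest peak was narrower in Spen KO by over 1 kb. Hoxb9 was the gene whose peak was wider in Spen KO, from 2866 to 2992 bp, a ratio of 1.04. The ratio was also close to 1 at Hoxd9 (0.966), Hoxc5 (0.959) and Hoxc4 (0.914). It was lowest at Hoxb8 (0.212), where the 2151 bp WT peak is also at a TSS of Hoxb7. That WT peak was overlapped by 2 Spen KO peaks, of 457 and 765 bp, and the ratio takes only the first, since the other lay outside the Hoxb8 window.

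At the outer ends of the clusters, Hoxb13, a gene of the prostate and tail, had a WT peak of 2099 bp and a Spen KO peak of 703 bp. Hoxb1, which specifies a hindbrain segment, had 1391 and 1121 bp. Hoxc13, a gene of hair and nails, had 2595 and 1417 bp, and Hoxc4 2187 and 1998 bp. Hoxd13 had 2193 and 1593 bp and Hoxd1 2092 and 1415 bp. By the widest peak all 6 were narrower in Spen KO, as were 88.3% of all genes with a peak in both lists. At Hoxc13 a further Spen KO peak of 1019 bp overlapped the WT peak, and the summed widths were 2595 and 2436 bp.

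**Figure D4:**
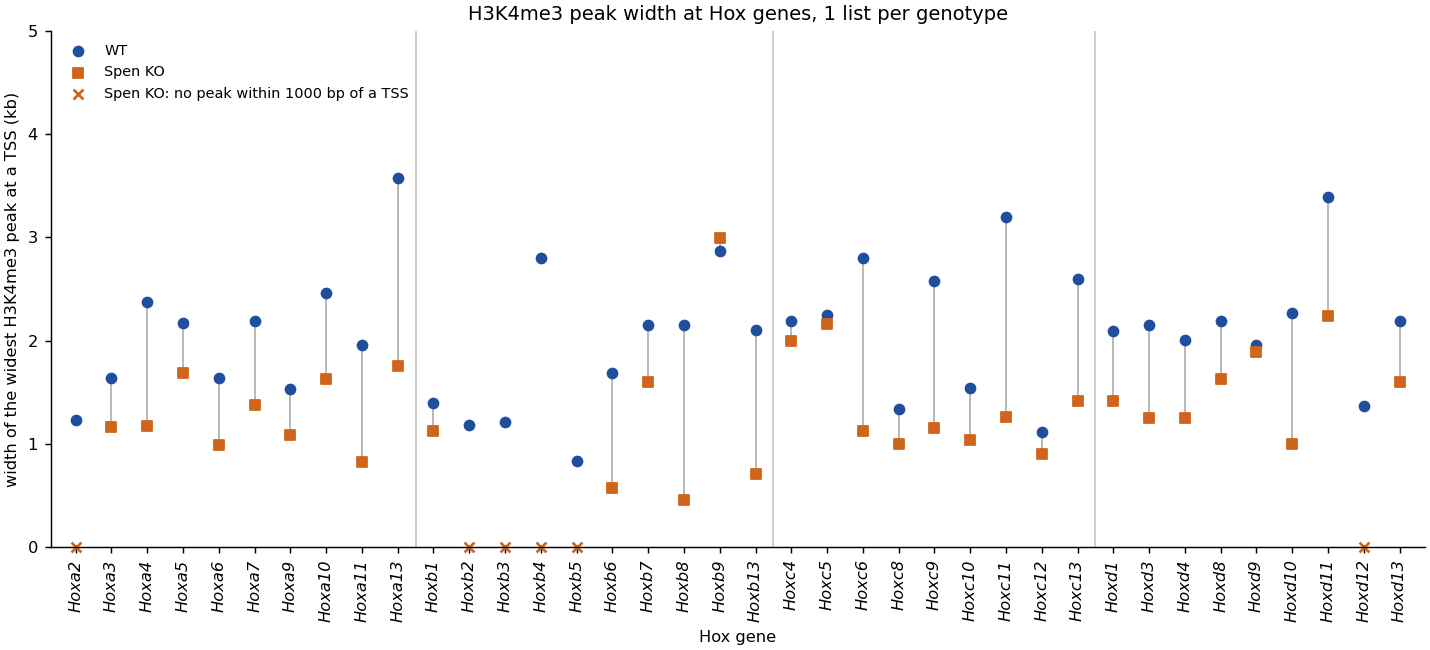
Width in kb of the widest H3K4me3 peak within 1000 bp of a TSS (y axis) for 38 Hox genes (x axis, by cluster and number), with WT as blue circles, Spen KO as orange squares and a line joining them. There is 1 list per genotype and so no error bar. The square lies below the circle at 31 of the 32 genes shown with both, Hoxb9 is the exception, and crosses mark the 6 genes with no Spen KO peak.

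No Hox gene lay under a broad H3K4me3 peak. Among the widest 5% of peaks of each list, which lie over 9.39% of all genes in WT and 7.81% in Spen KO, 0 of 39 Hox genes were found in either genotype. The Hoxa13 peak was at the 89.4 percentile of width in WT, and the widest Hox peak in Spen KO, at Hoxb9, at the 89.9 percentile. Other homeobox genes had 13 of 70 genes under such peaks in WT and 7 of 70 in Spen KO. Among mESC markers 6 of 8 and 5 of 8 were under them, including Pou5f1 (8499 and 6699 bp).

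Hox peaks were also weaker than the median TSS peak in both genotypes. At the 33 genes with both peaks, the median score percentile of the first and second library was 52.7 and 60.7 in the WT list and 42.5 and 52.1 in the Spen KO list. Both Spen KO values lay below both WT values, with 52.1 and 52.7 as the nearest pair, and the libraries of a genotype differed by about as much as the genotypes did. Means were 56.7 ± 5.67 and 47.3 ± 6.80 (SD, n = 2 libraries per genotype), and the difference of -9.37 had p = 0.333 by a two-sided exact permutation test over libraries, the smallest p that 2 against 2 allows. With peaks up to 5000 bp from a TSS the difference was -0.77. For all genes the same means were 78.1 and 74.7. The strongest Hox gene in both lists by the mean score of the libraries was Hoxc13, at percentile 84.3 in WT and 93.0 in Spen KO. At Hoxd10 the WT peak (percentile 40.1) was overlapped by 2 Spen KO peaks, of 998 bp at percentile 0.24 and of 480 bp at percentile 20.9.

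The paralogue groups were described by number along the cluster, with no test between them. Genes numbered 1 to 4, which act in the hindbrain and neck, had H3K4me3 in Spen KO at 8 of 12, those numbered 5 to 8 at 10 of 11, and those numbered 9 to 13, of the trunk, limbs and tail, at 15 of 16. Among the genes numbered 1 to 4 without one, the calls at Hoxb2 and Hoxb4 rested on the window. With a window of 5000 bp, Hoxd12 alone of the Hox genes lacked H3K4me3 in Spen KO. The median width ratios of the groups were 0.650, 0.684 and 0.659 in the same order. The median widths in Spen KO were 1248, 1245.5 and 1255 bp. The median score percentiles were 58.6, 53.4 and 55.0 in WT, and in Spen KO they were 42.2, 27.4 and 51.2, so that the group numbered 5 to 8 had the lowest value in both lists.

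The active mark H3K27Ac was nearly missing from the lists over the clusters. The WT list had 0 peaks in the 4 regions, and the Spen KO list had 1, of 744 bp at chr11:96112751-96113494. It lay at the promoter of Gm53, in the long gap between Hoxb13 and Hoxb9, overlapping an H3K4me3 peak of both genotypes. Its score was at percentile 33.7 in the first library and 2.22 in the second, so it was among the weakest of the list. From the gene spans, the nearest WT peak lay 48.9 kb from Hoxa, 62.5 kb from Hoxb, 174 kb from Hoxc and 757 kb from Hoxd. The median distance from a Hox TSS to H3K27Ac was 192 kb in WT and 139 kb in Spen KO. For other homeobox genes it was 179 and 167 kb, and for all genes 63.7 and 62.8 kb. The shift was in Hoxb, with medians of 166 kb in WT and 53.8 kb in Spen KO. It rested on the single weak Spen KO peak at Gm53, the nearest of that list to the Hoxb genes. In both lists the median was 102 kb in Hoxa, 234 kb in Hoxc and 786 kb in Hoxd.

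H3K9me3 was also rarely listed there. The WT list had 0 domains in the regions, and the Spen KO list 1, of 1.8 kb at chr11:96072401-96074200, downstream of Hoxb13 and away from any Hox TSS. Its score was at percentile 17.1 of the list, and it was not among the stronger 50%. The WT list covered 14.9% of the genome. The nearest WT domain lay 42.9 kb from Hoxa, 197 kb from Hoxb, 45.5 kb from Hoxc and 35.4 kb from Hoxd.

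Oct4 peaks over the clusters differed more between the WT libraries than between genotypes. The first WT library had 2 peaks there and the second 43, while the Spen KO libraries had 11 and 14. Both Spen KO values fell between the WT values. Means were 22.5 ± 29.0 in WT and 12.5 ± 2.12 in Spen KO (SD, n = 2), a difference of -10 with p = 1 by a two-sided exact permutation test, where 0.333 is the smallest possible. The sign rested on WT replicate 2, without which the difference was 10.5, and without WT replicate 1 it was -30.5. Per 1000 peaks of the library the counts were 1.11, 10.5, 4.20 and 4.62 in the same order. The density was 3.76, 80.8, 20.7 and 26.3 per Mb, above the 0.680, 1.55, 0.986 and 1.14 per Mb of each whole list.

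**Figure D5:**
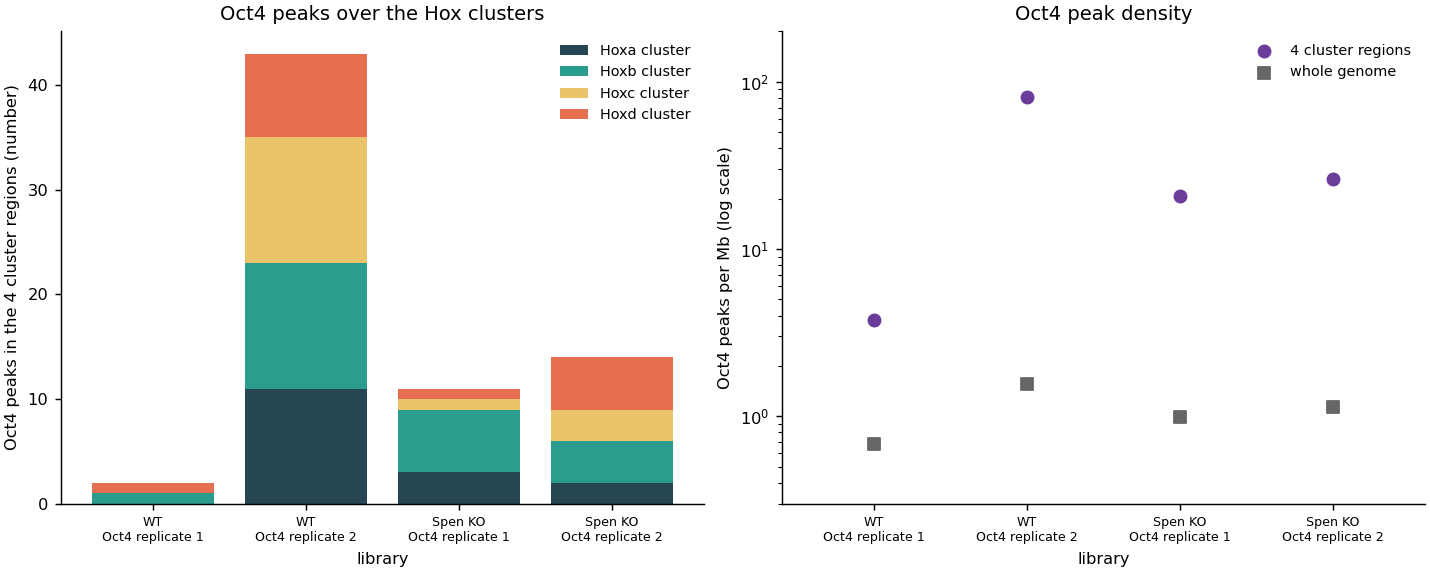
Left, the number of Oct4 peaks in the 4 cluster regions (y axis) in each library (x axis), stacked by cluster. Right, Oct4 peaks per Mb on a log scale in the cluster regions (circles) and genome-wide (squares). WT replicate 2 holds 43 cluster peaks and WT replicate 1 holds 2, with the Spen KO libraries at 11 and 14, and the circles lie above the squares in all 4 libraries.

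The same spread was seen at the Hox genes themselves. Oct4 lay within 1000 bp of a TSS at 1 and 19 Hox genes in the WT libraries and at 5 and 6 in those of Spen KO, against 6.81, 3.62, 3 and 2.82% of all genes. In WT replicate 1 the Hox share (2.56%) was below that of all genes, and in the other 3 libraries (48.7, 12.8 and 15.4%) above it. Other homeobox genes had 2, 28, 5 and 12 of 70 in the same order. Of the 19 genes in WT replicate 2, 12 were numbered 9 to 13, 5 were numbered 1 to 4 and 2 were numbered 5 to 8. Hoxd11 and Hoxc11 had Oct4 peaks in 3 libraries each, and Hoxa10, Hoxa11, Hoxb6, Hoxb7, Hoxd3 and Hoxd9 in 2.

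Few positions were found in more than 1 library. The 4 lists gave 52 distinct sites over the clusters, of which 40 were in 1 library, 9 in 2, 2 in 3 and 1 in all 4. No such count was taken over the whole lists, so whether this is particular to the clusters is not known. The site in 4 libraries (chr11:96051386-96052102) lay upstream of Hoxb13 in the 5 kb flank, outside H3K4me3, with fold enrichments over input of 5.60 and 7.45 (WT) and of 6.07 and 6.66 (Spen KO). The widest site (chr2:74519572-74520810, 1239 bp in WT replicate 2) lay in Hoxd11, a gene of the forearm and kidney, with folds of 6.71 and 9.79 in WT and 6.66 in Spen KO replicate 2. The other site in 3 libraries (chr15:102785402-102785634) lay over the coding sequence of Hoxc11. Of the 52 sites, 43 lay inside H3K4me3 of WT, and 24 of the 83 WT H3K4me3 peaks held an Oct4 peak of WT replicate 2. No whole-list share was taken for the 24 of 83. Inside H3K4me3 of the same genotype lay 50 and 79.1% of the WT cluster peaks (replicates 1 and 2), against 80.2 and 45.8% of the whole lists. In Spen KO these shares were 54.5 and 85.7%, against 46.2 and 38.6%. The 50% is of 2 peaks.

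The sequences of 2 of these sites are shown because sites at these positions were called in both genotypes. Each is 201 bp of mm9 around the summit of 1 library, on the plus strand, with CpG in capitals. The Hoxb13 upstream site (chr11:96051622-96051822) is intergenic and has 5 CpGs, and the Hoxd11 site (chr2:74519590-74519790) is intronic and has 9. The Hoxd11 stretch lies within the peak of WT replicate 2 and overlaps that of Spen KO replicate 2, while the peak of WT replicate 1 began beyond its end.
Hoxb13 upstream: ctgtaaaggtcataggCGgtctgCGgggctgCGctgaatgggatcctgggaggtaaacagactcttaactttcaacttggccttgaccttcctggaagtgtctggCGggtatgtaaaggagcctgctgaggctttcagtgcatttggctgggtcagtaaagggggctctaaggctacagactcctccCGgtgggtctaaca
Hoxd11 intron: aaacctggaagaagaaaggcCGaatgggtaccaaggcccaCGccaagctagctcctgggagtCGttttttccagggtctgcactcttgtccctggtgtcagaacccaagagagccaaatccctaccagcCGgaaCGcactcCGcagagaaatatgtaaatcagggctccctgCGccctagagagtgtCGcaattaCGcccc

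The octamer ATGCAAAT, the letters that Oct4 is known to bind, was searched on both strands in the 201 bp around each summit. It was in 0 of the 2, 43, 11 and 14 cluster peaks of the 4 libraries, against 3.22, 4.97, 4.10 and 5.72% of all their peaks. Given these shares, few matches would be found in so few peaks. Around TSSs it was in 2 of 39 Hox windows (5.13%), against 4.05% of all genes. CpG was dense in the cluster peaks, with medians of 2.99, 4.48, 7.46 and 9.20 per 100 bp, against 6.97, 1.49, 1.49 and 1.49 over each list. In WT replicate 1 the order was the reverse of that in the other 3.

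Genes around the Hox system kept their calls in most cases, as did genes in general. Of all genes with H3K4me3 in WT, 3.07% lacked it in Spen KO, and their median width ratio was 0.811 where both lists had a peak. All 9 Hox cofactors of the Pbx, Meis and Pknox families, which bind DNA together with Hox proteins, had H3K4me3 in both lists. H3K27Ac was at 3 of them in WT and 2 in Spen KO, the difference being Pbx2, whose H3K4me3 peak measured 9532 and 4290 bp. The 6 ParaHox genes (Gsx1, Gsx2, Pdx1, Cdx1, Cdx2 and Cdx4), evolutionary sisters of the Hox clusters, all had H3K4me3 and no H3K27Ac in both lists, with a median width ratio of 0.758. Cdx1 and Cdx2, which activate Hox genes in the embryo, had widths of 1832 and 892 bp and of 3414 and 3046 bp. Cdx1 had 1 peak in WT and 2 in Spen KO, of which the wider is given. Of 9 retinoid pathway genes, through which retinoic acid induces Hox genes, all had H3K4me3 in both lists and 2 had H3K27Ac in both, with a median ratio of 0.826.

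Genes whose products write the bivalent state had the same H3K4me3 and H3K27Ac calls in both genotypes. The 11 Polycomb genes had H3K4me3 in both lists, and 7 had H3K27Ac in each, with a median width ratio of 0.797. H3K9me3 was at 1 of them, Cbx7, in Spen KO alone. The 7 trithorax genes, whose products place H3K4me3, all had both marks in both lists, with a median ratio of 0.946. Most genes also kept their calls. Of all genes with H3K4me3 in WT, 3.07% lacked it in Spen KO. Of all genes with both marks in WT, 84.5% had H3K27Ac in Spen KO. The median width ratio of all genes was 0.811. Of the 9 genes that flank the clusters, H3K4me3 was at 7 in the WT list and at 8 in the Spen KO list, with Smug1 as the added gene. Evx2, a homeobox gene beside Hoxd13, had widths of 1331 and 569 bp, and Evx1, beside Hoxa13, 1589 and 1495 bp. Skap2, on the other side of Hoxa, had H3K27Ac in WT alone.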

How the data were processed

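Peak lists were analysed as deposited. To make them, the authors aligned read pairs to mm9 (Bowtie2), retained pairs with a unique concordant position, dropped duplicates (Picard) and ran MACS2 against input with a q-value limit of 0.01. For H3K4me3 and H3K27Ac, the authors kept peaks with an IDR under 0.05 between libraries, and the deposited lists hold a score for each library. Their origin and order are not named, and their mean ranked the peaks. The deposited H3K9me3 lists hold joined 200 bp windows with a score and a further value. Whether that value is a p-value or a false discovery rate is not named, and it was not used. How these lists were made is not given in the sources used here. The deposited Oct4 lists hold the fold enrichment, used for ranking, and p and q as −log10. The authors compared genotypes with DESeq2 on read counts, which was not possible from lists. A gap in a list can hold a peak that narrowly failed the limit, and list length can follow depth.

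Genes and genome were GENCODE vM1 on the mm9 build. A gene was called with a peak within 1000 bp of any annotated TSS. Percentiles rank peaks within a list. Tests were exact permutations over 2 against 2 libraries. Scripts used Python 3.11.15, numpy 2.4.6 and pandas 2.3.3 and were tested on simulated data. The Hox genes, the other gene lists and the tests were chosen with earlier results of these data known. Values were given in full for genes whose call differed, for the widest peaks and for the cluster ends. Values of 1 Hox gene are not reported here, although the counts include it. Input libraries and reads were not analysed here.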

Additional observations from a re-analysis of the deposited data

How the results depend on the processing

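Changing the processing left most values near those reported. Over the clusters, the ratio of H3K4me3 bases in Spen KO to WT stayed between 0.479 and 0.566 without a flank, with 20 kb, among the stronger 50%, with lists of equal length and with peaks within 1000 bp merged. It was 0.530 without Hoxb13 and the gap up to Hoxb9, an alternative chosen after seeing the data, as was the overlap rule that gave 35 Hox genes with H3K4me3 in Spen KO. The median H3K4me3 width ratio was 0.659 among genes whose widest peaks overlap and 0.644 by summed widths, both likewise chosen later. Among the stronger 50% of peaks, 16 Hox genes had H3K4me3 in Spen KO. H3K9me3 over the clusters in Spen KO was 0 kb among the stronger 50% and with lists of equal length. With the widest 10% of peaks as broad, 1 Hox gene was under a broad peak in WT. The counts of 0 for H3K27Ac at Hox genes and of 0 kb for H3K9me3 in WT stayed at 0 in all alternatives run. No ratio of H3K27Ac bases exists, since WT had none.

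For Oct4, the difference of Spen KO minus WT ran from -30.5 to 10.5 when each library was left out. It changed sign, to 10.5, without WT replicate 2. The score percentile difference ran from -14.2 to -4.56 when each library score was left out. With peaks up to 5000 bp from a TSS that difference was near 0, at -0.77. The cause of these shifts was not tested. With the replicate block the Oct4 difference was -10 (exact paired permutation p = 1, where 0.5 is the smallest possible). Libraries with the same number shared only that number, with a correlation of deviations of 0.0235 over 1932 bins of 1 Mb. No paired analysis was possible for the H3K4me3 scores because the lists do not number their libraries.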

Other observations

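Within the Hox clusters, the annotation holds other genes between the Hox genes. 5730596B20Rik, inside Hoxa, had a 1967 bp H3K4me3 peak within 1000 bp of its TSS in WT and none in Spen KO, a call that rests on the window: a Spen KO peak of 1113 bp overlapped the WT peak but lay beyond 1000 bp from the TSS. Gm53, in the gap between Hoxb13 and Hoxb9, had H3K4me3 peaks of 2271 bp (WT) and 2436 bp (Spen KO) and the single H3K27Ac call of the clusters, in Spen KO. These genes were named after their values were seen.

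Ring1, a Polycomb subunit, had a widest H3K4me3 peak of 12272 bp in WT against 2859 bp in Spen KO. At its TSSs the WT list had 1 peak and the Spen KO list 2, of which only the wider is given. At Gata6, an endoderm regulator, the widths were 5495 and 1975 bp. Each rests on 1 list per genotype, and both were named after their values were seen.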
